A study of Mus musculus with 15 samples.

Results

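Transcript levels in control 4TO7 cells were compared with those in control 4T1 cells, across every gene detected on the arrays. The 4TO7 cells had been transduced with the empty retroviral vector pBabepuro (3 arrays), and the 4T1 cells with a lentiviral pLKO vector that encodes a scrambled short hairpin RNA (3 arrays). These 6 arrays were taken by their group labels from the 15 of the study. The other 9 came from 4TO7 cells with pBabepuro carrying TM4SF1 (3 arrays) and from 4T1 cells with either of 2 hairpins against Tm4sf1 (6 arrays). Cell line and vector type change together in the comparison, so a difference between the lines and a difference between the vectors cannot be told apart. The vectors were integrated stably, and the sources used here do not say how many independent transductions stand behind each group. The labels call the 3 arrays of a group biological replicates without saying whether cultures were grown apart. The p-values rest on the spread between arrays of a group, pooled over all 5 groups of the study and moderated across genes.

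4T1 and 4TO7 are sister lines from a single spontaneous mammary tumour of a BALB/c mouse. 4T1 spreads from the mammary fat pad to lung, liver and bone and grows there into visible metastases. 4TO7 sheds cells that reach the lung but seldom grow into visible colonies, which is why the pair is used to study the outgrowth of disseminated cells. Both were selected for resistance to thioguanine, which Hprt activates, and 4TO7 also for resistance to ouabain, which blocks the sodium pump.

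The arrays were Illumina mouse BeadChips with 25697 probes. Levels are given as log2 normalized intensity, in which a difference of 1 is a doubling of the corrected signal plus an offset of 16, so that differences of dim genes are understated, and all differences are 4TO7 minus 4T1. Mean signal before normalization ran from 308.5 to 391 on the 4TO7 arrays and from 249 to 418.6 on the 4T1 arrays, and between 9848 and 10199 probes were detected on the 4TO7 arrays against 9436 to 10703 on the 4T1 arrays. The array with the fewest detected probes was 4T1 replicate 3. Across genes, arrays correlated at r = 0.992 to 0.9937 among the 4TO7 arrays and 0.9905 to 0.9948 among the 4T1 arrays, against 0.927 to 0.9317 between the lines.

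Of 8228 genes tested, 3973 (48.3%) passed an adjusted p of 0.05 in limma. In 4TO7 cells 2100 were higher (25.5%) and 1873 were lower (22.8%). Most differences were small: the median absolute log2 difference was 0.31, and the 5th and 95th percentiles of the signed difference were -1.02 and 0.89. At 2-fold or more, 330 called genes were higher and 421 lower. At 8-fold or more the counts were 32 and 36. The 3 arrays of 4TO7 did not overlap the 3 of 4T1 for 57.0% of genes.

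Set against those shares, 4TO7 cells held more transcript of endoplasmic reticulum chaperones and XBP1 targets (18 of 23 measured members higher, 0 lower). The same held for integrated stress response and amino acid genes (24 of 34 higher, 2 lower). Of 22 measured chemokines, cytokines and colony-stimulating factors 11 were higher, Csf3 and Cxcl2 among them, and 5 lower. The list of NRF2 targets and detoxification enzymes had 30 of 50 members lower and 6 higher, and of 11 measured integrin subunits 7 were lower and 1 higher. Twist1, a driver of epithelial-mesenchymal transition, was detected on every 4T1 array and on no 4TO7 array. The mesenchymal list that holds it was split, with 9 of 19 measured members lower and 7 higher. Genes on chromosome 7 were more often called higher than those elsewhere. Counts of called list members, here and below, are to be read against 25.5% of all genes tested higher and 22.8% lower.

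**Figure D1:**
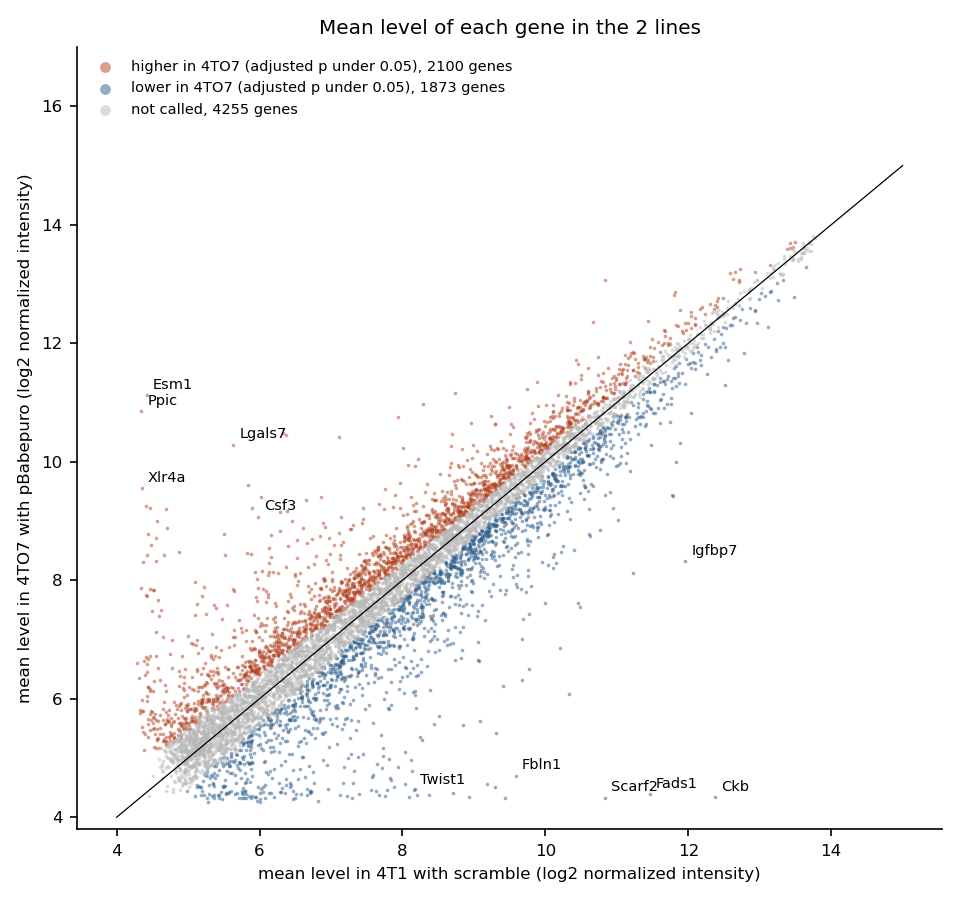
Mean level of each of 8228 genes in 4TO7 with pBabepuro (vertical axis) against 4T1 with scramble (horizontal axis), in log2 normalized intensity. Red points are the 2100 genes called higher in 4TO7, blue the 1873 called lower, grey the 4255 not called, and the line marks equal levels. Esm1, Ppic and Xlr4a stand at the upper left, and Ckb, Fads1 and Scarf2 at the lower right.

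The genes farthest apart were on in one line and undetected in the other. Esm1 encodes endocan, a secreted proteoglycan best known from endothelial cells. Its levels were 11.18, 11.05 and 11.15 on the 4TO7 arrays and 4.52, 4.36 and 4.38 on the 4T1 arrays, a difference of 6.71 (SE 0.125, adjusted p = 4.11e-25). It was detected on 3 of 3 arrays of 4TO7 and 0 of 3 of 4T1, so the fold is a bound, at least 59.9-fold higher. Such bounds set the mean of the bright group against the lowest signal that counted as detected on each array of the dim group. Where 1 or 2 arrays of the dim group detected a gene, the fitted fold is given and rests in part on undetected signal. Among genes described below, the dimmer line detected Car12, Cox7a1, Fgf7, Hoxc6 and Pdgfb on 1 of 3 arrays and Car9, Ccn4, Cth, Dcn, Egr1, Inhba, Srebf1, Tapbpl, Usp18, Wnt10a and Wnt10b on 2 of 3.

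Ppic encodes cyclophilin C, a peptidyl-prolyl isomerase of the secretory pathway. Its levels were 10.87, 10.80 and 10.88 in 4TO7 and 4.26, 4.36 and 4.41 in 4T1, at least 49.4-fold higher (adjusted p = 4.11e-25), and a second probe differed by 4.14. Both probes therefore placed Ppic far above its level in 4T1. Xlr4a belongs to an X-linked lymphocyte-regulated family of near-identical copies, so which copy the probe reads is uncertain. It stood at 9.51, 9.60 and 9.56 in 4TO7 and 4.41, 4.27 and 4.37 in 4T1, at least 20.1-fold higher. Plpp3, a lipid phosphate phosphatase, stood at 9.24, 9.23 and 9.27 in 4TO7 and 4.36, 4.41 and 4.47 in 4T1, at least 16.2-fold higher. All of these genes were picked as the largest rises without overlap, so a gap between the groups was set by the choice.

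A further 7 of the 15 largest rises were detected on no 4T1 array. Tbcel, a relative of a tubulin-folding cofactor, was at least 15.8-fold higher and Slc15a3, a lysosomal peptide and histidine transporter, at least 15.8-fold. Rassf4, a Ras-association domain protein, was at least 13.7-fold higher, though 2 more probes of the gene differed by only 1.50 and 2.90. Cask, a scaffold of cell junctions, Renbp, which interconverts amino sugars, and Ott, a multicopy X-linked gene, were at least 11.8-, 11.2- and 10.4-fold higher, and a second Ott probe differed by only 0.95. Tmem98, a membrane protein gene, was at least 9.24-fold higher.

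Other large rises were in genes that 4T1 cells also expressed or nearly so. Lgals7 encodes galectin-7, a lectin of stratified epithelia, and stood at 10.31, 10.32 and 10.24 in 4TO7 and 5.27, 5.61 and 6.02 in 4T1, 25.2-fold higher (adjusted p = 1.16e-19). Fgf7, keratinocyte growth factor, which mesenchymal cells make for epithelia, stood at 8.67, 8.78 and 9.18 in 4TO7 and 5.16, 4.52 and 4.43 in 4T1, where 1 array of 3 detected it. Espn, which bundles actin in microvilli and hair cells, differed by 4.08. Nppb, the precursor of B-type natriuretic peptide, stood at 10.55, 10.54 and 10.38 in 4TO7 and 6.21, 6.54 and 6.26 in 4T1 and differed by 4.15.

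Among the falls, Ckb had the largest difference of all genes tested. It encodes the brain-type creatine kinase, which keeps a phosphate reserve for ATP. Its levels were 4.30, 4.36 and 4.35 in 4TO7 and 12.40, 12.39 and 12.32 in 4T1, a difference of -8.03 (SE 0.0828, adjusted p = 4.46e-31). No 4TO7 array detected it while every 4T1 array read it above 12, so it was at least 138-fold lower.

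Fads1 encodes the delta-5 desaturase that makes arachidonic acid and other long polyunsaturated fatty acids. It stood at 4.49, 4.45 and 4.23 in 4TO7 and 11.59, 11.45 and 11.33 in 4T1, at least 73.2-fold lower (adjusted p = 1.87e-26). Scarf2, a scavenger receptor family member, stood at 4.39, 4.25 and 4.35 in 4TO7 and 10.76, 10.84 and 10.87 in 4T1, at least 47.3-fold lower. Both were undetected on every 4TO7 array and bright on every 4T1 array. The matrix glycoproteins Fbln1 and Fbln2 (fibulins) were at least 20- and 16.3-fold lower on their brightest probes, but other probes differed by -0.76 and -1.87 for Fbln1 and by -1.52 for Fbln2. Pmp22, a tetraspan membrane protein of myelin and epithelia, was at least 15.2-fold lower, and a second probe differed by -2.92.

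Tmem185b was at least 18.1-fold lower, Mpp1, a scaffold of the membrane skeleton, at least 12.8-fold, and Nbl1, a secreted antagonist of bone morphogenetic proteins, at least 10.9-fold. Fam111a, a chromatin-bound protease, Nectin3, an adhesion molecule of cell junctions, Eva1b and Tmem51 were at least 8.63-, 7.69-, 7.12- and 7.53-fold lower, with a second Nectin3 probe at -1.47. Tmem223 was still detected on every 4TO7 array and Egr1 on 2 of 3. Tmem223, a mitochondrial inner membrane protein gene, stood at 6.12, 6.09 and 6.02 in 4TO7 and 10.30, 10.35 and 10.35 in 4T1. Egr1, an immediate early transcription factor, stood at 5.18, 5.56 and 5.51 in 4TO7 and 9.47, 9.26 and 9.18 in 4T1 and was 14.8-fold lower.

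**Figure D2:**
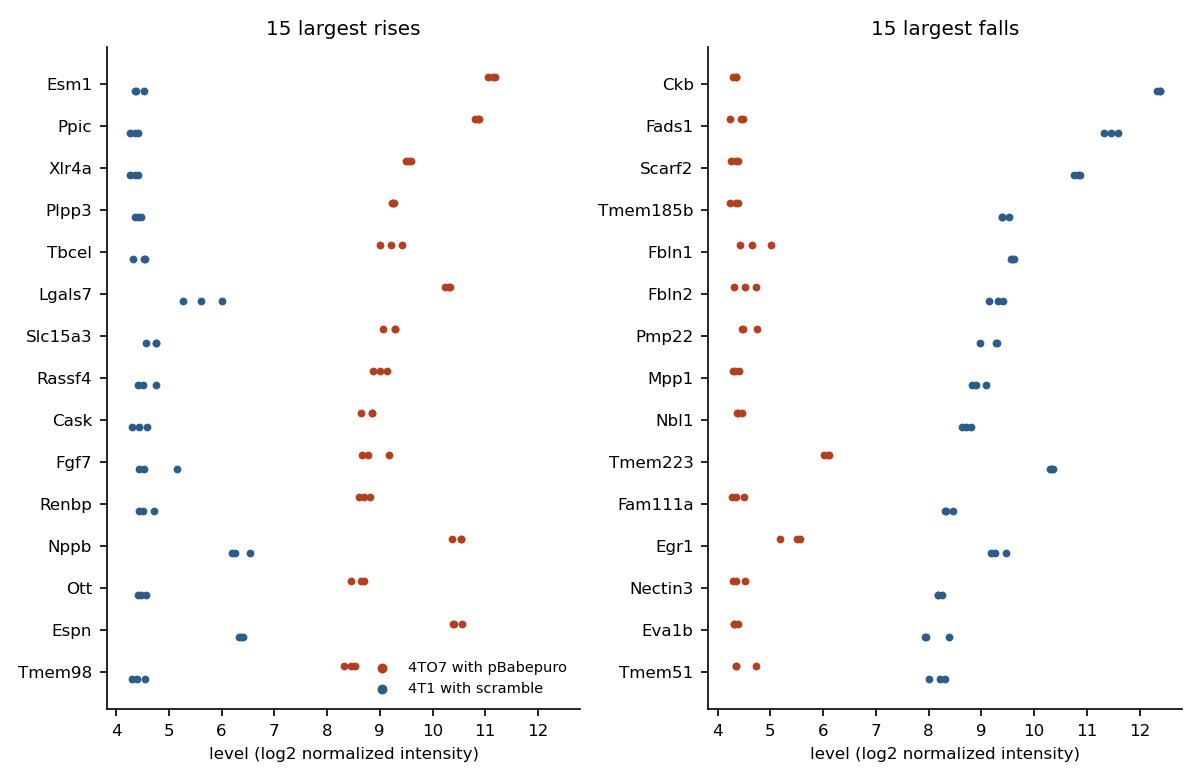
Levels on each array of the 15 genes with the largest rises (left) and the 15 with the largest falls (right) in 4TO7, in log2 normalized intensity, with each point 1 array, red for 4TO7 with pBabepuro and blue for 4T1 with scramble. The 3 red points lie apart from the 3 blue ones in every row because only genes without overlap were picked. For most genes the dimmer line sits near the lower end of the scale.

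In all, 121 genes were detected on every 4TO7 array and on no 4T1 array, and 174 on every 4T1 array and on no 4TO7 array (detection p under 0.01). In the 9 arrays outside the comparison, 70 of the 121 were again detected on every 4TO7 array and on no 4T1 array, and 110 of the 174 again the other way round. Counts with a detection p under 0.05 were 81 and 138.

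The promoter windows of Ckb and Esm1, the largest difference in each direction, are shown with every CG dinucleotide in capitals, because CG density tends to separate broadly used promoters from tissue-restricted ones. Each window holds 300 bases on the gene's strand, most of them before its start. In the RefSeq windows of build GRCm38.p6 the median number of CG sites was 23 over 6262 genes tested, 13 over 86 genes detected in 4TO7 only and 17 over 125 genes detected in 4T1 only. The Ckb window (chr12:111672289-111672588, minus strand) holds 22 and the Esm1 window (chr13:113209409-113209708, plus strand) holds 5. DNA methylation was not measured here.
Ckb: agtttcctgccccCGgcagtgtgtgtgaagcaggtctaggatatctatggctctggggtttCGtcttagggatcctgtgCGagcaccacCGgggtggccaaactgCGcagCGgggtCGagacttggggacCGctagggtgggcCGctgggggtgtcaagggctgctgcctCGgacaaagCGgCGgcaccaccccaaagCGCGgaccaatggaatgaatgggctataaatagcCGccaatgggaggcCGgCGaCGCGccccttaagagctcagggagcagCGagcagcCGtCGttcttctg
Esm1: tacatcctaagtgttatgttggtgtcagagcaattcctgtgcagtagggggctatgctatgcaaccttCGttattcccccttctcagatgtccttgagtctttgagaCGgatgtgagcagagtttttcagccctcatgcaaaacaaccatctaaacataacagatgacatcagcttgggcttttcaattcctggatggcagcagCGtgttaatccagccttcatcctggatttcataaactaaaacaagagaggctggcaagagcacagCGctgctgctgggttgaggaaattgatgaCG

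The lines were checked against cell type markers. 3 of 9 epithelial markers on the array were detected on every array of both lines, the simple-epithelium keratins Krt8 and Krt18 and the protease inhibitor Spint1. Cdh1 (E-cadherin), Krt19, Cldn7, Esrp1, Esrp2 and Grhl2 were undetected in both. The summed linear level of the epithelial markers was 3453 to 3984 on 4TO7 arrays and 8452 to 8928 on 4T1 arrays, and all 3 detected members were lower in 4TO7. Krt18 stood at 9.37, 9.52 and 9.36 in 4TO7 and 11.80, 11.78 and 11.78 in 4T1, 5.17-fold lower (adjusted p = 6.84e-21). Krt8 differed by -0.77 and Spint1 by -1.25. In arrays of whole cultures, fewer cells of a type and less RNA per cell cannot be told apart.

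Markers of other cell types were mostly undetected. Of 10 leukocyte markers Cd74, the invariant chain of MHC class II, was detected, and only in 4TO7 (6.78, 6.65 and 6.73 in 4TO7 and 4.51, 4.74 and 4.41 in 4T1), while Ptprc (CD45) was undetected in both lines. The summed leukocyte level was 289.8 to 305 in 4TO7 and 207.8 to 221.8 in 4T1. Of 10 endothelial markers, Eng and Plvap were detected in 4T1 and not in 4TO7, and Pecam1, Cdh5 and Kdr were undetected in both. The summed endothelial level was 209.8 to 222.2 in 4TO7 and 542 to 577.2 in 4T1. Of 11 fibroblast markers, Pdgfra and Pi16 were detected in both lines and Dcn on every 4TO7 array and 2 of 3 4T1 arrays, and the collagen genes Col1a1, Col1a2 and Col3a1 were undetected in both. The summed fibroblast level was 828.9 to 871.9 in 4TO7 and 1130 to 1231 in 4T1. None of 6 adipocyte markers was detected.

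Genes of the endoplasmic reticulum chaperone and XBP1 list stood higher in 4TO7. These proteins fold and inspect secreted proteins, and cells raise them through the unfolded protein response, in which the sensors ATF6 and IRE1 act on promoters that carry the endoplasmic reticulum stress element. Of 32 members, 29 had probes and 23 were measured, of which 18 were higher and 0 lower, with a median difference of 0.70 against 0.034 over all genes tested. Without background correction the median was 0.46. In the other 9 arrays the 18 were again higher, and 21 of the 23 were called higher there and 1 lower.

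Hyou1, a large chaperone of the endoplasmic reticulum, stood at 7.83, 7.70 and 7.60 in 4TO7 and 5.86, 5.84 and 6.13 in 4T1, 3.4-fold higher (adjusted p = 2.33e-11). Herpud1, which helps remove misfolded proteins, stood at 10.82, 10.75 and 10.75 in 4TO7 and 9.23, 9.40 and 9.10 in 4T1, 2.89-fold higher (adjusted p = 3.8e-15). Calr, the calcium-binding lectin chaperone calreticulin, stood at 10.45, 9.85 and 10.36 in 4TO7 and 8.97, 8.81 and 8.71 in 4T1, 2.62-fold higher. Pdia4, a protein disulfide isomerase, differed by 1.33. In each of these 4 genes the lowest 4TO7 array lay above the highest 4T1 array.

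The promoters of this list were searched for the stress element, CCAAT and CCACG with 9 bases between them, on both strands. It occurred in 7 of 21 listed genes with a window (33.3%) and in 5 of the 16 called higher (31.2%). Over all genes tested it occurred in 11 of 6262 genes with a window (0.176%). The list was made of genes known for this stress response, so its excess over all genes does not bear on the line difference. The listed genes with a match were Calr, Creld2, Dnajc3, Hsp90b1, Hspa5, Pdia6 and Syvn1. The Calr, Hsp90b1 and Creld2 windows are printed with each match in capitals, on whichever strand it stands, to show the element where it occurs. Creld2, a disulfide isomerase-like protein, and Hsp90b1, the chaperone GRP94, differed by 1.12 and 0.94. Hspa5 (BiP) and Pdia6 carry the element too, and their differences of 0.39 and 0.12 did not pass the test. All of these but Calr were named for the match, after their values were seen.
Calr (chr8:84846882-84847181, minus strand): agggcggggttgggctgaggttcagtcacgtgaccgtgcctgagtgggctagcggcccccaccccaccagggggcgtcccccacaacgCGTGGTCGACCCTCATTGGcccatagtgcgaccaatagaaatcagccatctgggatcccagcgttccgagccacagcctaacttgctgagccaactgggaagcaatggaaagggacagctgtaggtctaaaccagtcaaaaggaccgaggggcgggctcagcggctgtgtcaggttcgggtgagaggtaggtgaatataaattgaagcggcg
Hsp90b1 (chr10:86705395-86705694, minus strand): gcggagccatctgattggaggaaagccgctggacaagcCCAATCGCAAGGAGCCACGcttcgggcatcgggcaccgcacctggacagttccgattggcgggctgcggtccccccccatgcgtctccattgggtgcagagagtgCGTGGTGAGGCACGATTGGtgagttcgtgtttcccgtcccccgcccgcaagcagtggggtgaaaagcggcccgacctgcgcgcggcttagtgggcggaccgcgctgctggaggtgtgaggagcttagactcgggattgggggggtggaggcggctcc
Creld2 (chr15:88819396-88819695, plus strand): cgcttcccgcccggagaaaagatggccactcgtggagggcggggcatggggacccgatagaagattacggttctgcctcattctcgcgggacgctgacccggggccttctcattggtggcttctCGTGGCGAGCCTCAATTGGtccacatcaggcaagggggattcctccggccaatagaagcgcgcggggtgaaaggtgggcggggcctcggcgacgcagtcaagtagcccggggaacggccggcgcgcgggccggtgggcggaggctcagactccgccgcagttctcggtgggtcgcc

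ATF4 and CHOP switch on many genes of the integrated stress response and amino acid list when amino acids are short or translation is held back. The list also holds amino acid and folate enzymes and transporters. It had 34 of 42 members measured. Of these 24 were higher in 4TO7 and 2 lower, with a median of 0.47. When arrays were scaled to a common median in place of quantile normalization, 15 passed as higher. That scaling called fewer genes of every kind, 887 higher and 667 lower of all 8228 (18.9%). Counts with median scaling in the lists below are to be read against those. Aldh1l2 and Mthfd2, enzymes of mitochondrial folate metabolism, differed most. Aldh1l2 stood at 8.51, 8.75 and 8.49 in 4TO7 and 6.28, 6.49 and 6.43 in 4T1, 4.55-fold higher (adjusted p = 1.8e-14). Mthfd2 stood at 8.92, 8.81 and 8.95 in 4TO7 and 7.05, 6.99 and 6.71 in 4T1, 3.93-fold higher (adjusted p = 1.79e-13). No other member of the list differed by as much, and Shmt2, another enzyme of that pathway, differed by 0.87.

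Ppp1r15a (GADD34), which restores translation after stress, differed by 1.38 and Gpt2, a mitochondrial alanine transaminase, by 1.21. The 2 lower members were Slc7a11, the cystine importer, at 7.43, 7.24 and 7.34 in 4TO7 and 8.45, 8.48 and 8.29 in 4T1, and Cth, which makes cysteine from cystathionine, at -0.83. Both supply cysteine, and Slc7a11 is also a target of NRF2. The ATF4 element, TGATG and AAT with 1 base between them, on either strand, occurred in 3 of 28 listed genes with a window (10.7%). Over all genes tested it occurred in 34 of 6262 genes with a window (0.543%). As the list was made of known stress response and amino acid genes, this excess does not bear on the line difference.

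The list of NRF2 targets and detoxification enzymes had more members lower than higher in 4TO7. NRF2, encoded by Nfe2l2, switches on glutathione and quinone-reducing enzymes under oxidative or electrophilic stress. Of 77 members 50 were measured, 30 lower and 6 higher, with a median of -0.36, and with median scaling 15 passed as lower. Gsta4, a glutathione transferase, stood at 5.72, 6.11 and 5.71 in 4TO7 and 8.21, 8.12 and 8.26 in 4T1, 5.09-fold lower (adjusted p = 6.55e-15). Aldh3a1, an aldehyde dehydrogenase, stood at 9.45, 9.47 and 9.38 in 4TO7 and 11.70, 11.82 and 11.77 in 4T1, 5.05-fold lower (adjusted p = 3.97e-20). Akr1c12, an aldo-keto reductase, and Ephx1, epoxide hydrolase, differed by -1.67 and -1.54.

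Genes often used to read NRF2 activity, chosen after their values were seen, did not move as one. Nqo1, a quinone reductase, differed by -1.12 and Nfe2l2 itself by -0.85, both called. Srxn1 (-0.25), Slc7a11 (-1.065), Abcc1 (-0.62), Gsta1 (-1.425) and Cbr1 (-0.94) were called lower as well. Gclm, which helps make glutathione, was higher (0.33). The antioxidant genes Hmox1 (0.59), Gclc (0.0065), Gss (-0.27), Txnrd1 (0.45), Txn1 (-0.12), Prdx1 (0.11) and Me1 (-0.039) did not pass the test. Many of the lower calls were transferases and dehydrogenases listed by their gene family. Whether NRF2 activity differed between the lines was not tested.

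The 6 higher members of that list included Gstk1, the mitochondrial and peroxisomal kappa transferase, which stood at 9.12, 9.26 and 9.07 in 4TO7 and 6.34, 6.22 and 6.31 in 4T1, 7.28-fold higher. Gstm5 differed by 1.54. Aldh18a1, a proline synthesis enzyme that sits in the list by its gene family name, differed by 1.38, and Akr1b8, an aldose reductase relative, by 0.89. Glutathione transferases therefore lay on both sides. Glutathione transferase genes of a class are close relatives, and which of them a probe reads is uncertain.

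Interferon-stimulated genes, which carry antiviral functions and are switched on by interferon signalling, had 34 of 55 members measured, 18 higher in 4TO7 and 3 lower, with a median of 0.37 (0.25 without background correction). Ifi47, an interferon-inducible GTPase, was at least 2.12-fold higher, with levels of 6.38, 6.27 and 6.29 in 4TO7 and 4.79, 4.63 and 4.38 in 4T1. Ifit2, an RNA-binding antiviral protein, was at least 3.08-fold higher. Gbp3, a guanylate-binding protein, stood at 7.88, 7.82 and 7.62 in 4TO7 and 5.94, 6.34 and 6.07 in 4T1. Usp18, which removes ISG15 from proteins, differed by 1.49. Ifi47 and Ifit2 were detected on 0 of 3 4T1 arrays.

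The 3 lower members were Irf1 (-0.43), a transcription factor, Lgals3bp (-0.37), a secreted glycoprotein, and Eif2ak2 (-0.29), the kinase PKR, and with median scaling 0 passed as lower. In the other 9 arrays 15 of the 18 were called higher again, and the median of the list was 0.10. The interferon response element was searched as GAAA repeated after 2 bases, on both strands. It occurred in 14 of 28 listed genes with a window (50%) and in 9 of the 15 called higher (60%). Over all genes tested it occurred in 222 of 6262 genes with a window (3.55%). The list was made of known interferon targets, so its excess over all genes does not bear on the line difference. The Isg15 and Ifit3 windows, chosen for their matches after their values were seen, show the element in capitals, overlapping copies joined and on either strand. Isg15, a ubiquitin-like modifier, differed by 0.59 and Ifit3, a partner of Ifit2, by 1.05.
Isg15 (chr4:156200769-156201068, minus strand): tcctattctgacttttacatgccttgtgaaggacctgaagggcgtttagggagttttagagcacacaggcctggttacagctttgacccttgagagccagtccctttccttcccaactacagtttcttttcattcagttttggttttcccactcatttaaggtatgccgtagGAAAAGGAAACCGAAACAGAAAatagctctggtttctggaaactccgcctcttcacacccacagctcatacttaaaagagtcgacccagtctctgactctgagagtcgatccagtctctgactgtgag
Ifit3 (chr19:34583279-34583578, plus strand): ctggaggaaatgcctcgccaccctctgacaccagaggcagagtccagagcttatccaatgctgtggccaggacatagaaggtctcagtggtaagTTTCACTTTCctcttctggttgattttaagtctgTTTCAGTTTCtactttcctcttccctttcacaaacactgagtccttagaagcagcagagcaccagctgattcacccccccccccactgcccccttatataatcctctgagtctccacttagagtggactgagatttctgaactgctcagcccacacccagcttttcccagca

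The MHC class I and antigen processing list, also interferon-responsive, had 19 of 31 members measured, with 3 higher, 4 lower and 12 not called, and a median of -0.12. The higher members were the chaperones Calr and Pdia3, which also stand in the endoplasmic reticulum list, and Tapbpl, a peptide editor (0.61). The lower members were Cd1d1, a lipid-presenting molecule, at least 2.76-fold lower, the class I transactivator Nlrc5 (-0.84), and the proteasome genes Psme2 (-0.33) and Psmb10 (-0.24).

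**Figure D3:**
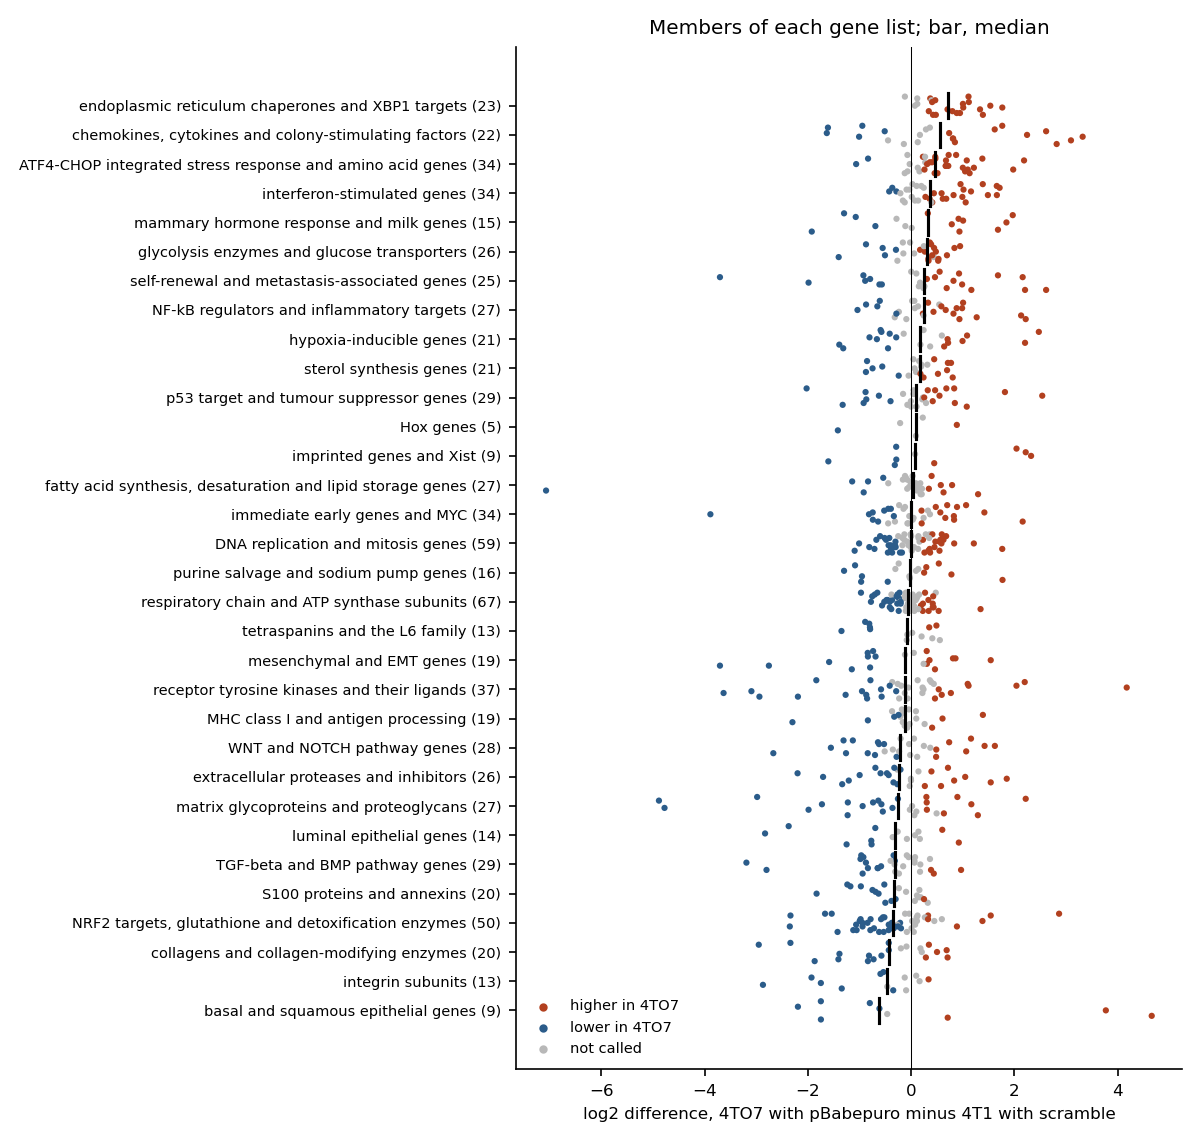
Log2 difference, 4TO7 with pBabepuro minus 4T1 with scramble, of every measured member of 32 gene lists, with the number measured in brackets. Each point is a gene, red where called higher in 4TO7, blue where called lower, grey where not called, and the black bar is the median. The endoplasmic reticulum list has red points and no blue ones, and the NRF2 list is mostly blue.

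Chemokine and cytokine genes, many of which draw neutrophils or other myeloid cells, lay on both sides with more of them higher in 4TO7. Of 42 chemokines, cytokines and colony-stimulating factors 22 were measured, 11 higher and 5 lower, with a median of 0.55 (0.19 without background correction). Cxcl2, a neutrophil chemokine, stood at 7.77, 7.71 and 8.003 in 4TO7 and 4.42, 4.46 and 4.65 in 4T1, at least 6.08-fold higher. Csf3, granulocyte colony-stimulating factor, stood at 9.17, 8.76 and 9.29 in 4TO7 and 5.97, 6.07 and 5.90 in 4T1, 8.53-fold higher (adjusted p = 5.17e-15). Cxcl5, a further neutrophil chemokine, stood at 10.69, 10.78 and 10.78 in 4TO7 and 7.86, 8.01 and 7.94 in 4T1, 7.04-fold higher. All of these were separated from 4T1 by more than 2 on the log2 scale.

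Il11, a cytokine of the interleukin-6 family, stood at 8.67, 8.78 and 8.85 in 4TO7 and 6.30, 6.11 and 6.05 in 4T1 and was 6.11-fold higher. The lower members included Csf1, the macrophage growth factor, at 6.65, 6.26 and 6.79 in 4TO7 and 8.11, 8.15 and 8.34 in 4T1, 3.1-fold lower. Cx3cl1, or fractalkine, differed by -1.61, Tslp, thymic stromal lymphopoietin, by -1.01, and Il23a, an interleukin-23 subunit, by -0.95.

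Regulators and targets of NF-kB, the transcription factor behind many of these cytokines, had 27 of 44 members measured, 13 higher and 5 lower, with a median of 0.24. Nfkbiz, a nuclear co-regulator, stood at 10.24, 10.21 and 10.24 in 4TO7 and 7.88, 8.04 and 8.13 in 4T1, 4.65-fold higher (adjusted p = 1.59e-16). Saa3, an acute-phase protein, was 4.37-fold higher, and Nfkbia, the inhibitor that NF-kB itself induces, was 2.41-fold higher. Lcn2, a siderophore-binding lipocalin, differed by 1.00 at a high level in both lines. The adaptor Myd88 (-1.04), Tnfaip2 (-0.87), the receptor Tnfrsf1b (at least 1.06-fold) and the adaptor Traf1 (-0.61) were lower.

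The list of S100 proteins and annexins, calcium-binding proteins often studied in metastasis, had 20 of 28 members measured, with 11 lower and 1 higher and a median of -0.34. It also holds S100pbp, a binding partner rather than an S100 protein, which was not called, so the calls fell among 19 proteins of the 2 families. S100a8, a subunit of calprotectin, stood at 9.97, 10.05 and 9.98 in 4TO7 and 11.88, 11.87 and 11.74 in 4T1, 3.56-fold lower (adjusted p = 4.87e-17). S100a3, Anxa6 and S100a7a differed by -1.24, -1.18 and -0.97. The higher member was S100a6 (0.25, adjusted p = 0.0284). With median scaling 5 passed as lower and 0 as higher, and with loess normalization 2 passed as higher.

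Matrix and adhesion genes were more often lower than higher. Collagens and collagen-modifying enzymes had 20 of 39 members measured, 11 lower and 5 higher, with a median of -0.43. Col5a1, a fibrillar collagen chain, stood at 7.38, 7.72 and 7.52 in 4TO7 and 10.59, 10.62 and 10.27 in 4T1, 7.73-fold lower (adjusted p = 1.61e-18). Pcolce, which speeds up procollagen cleavage, was 5.05-fold lower, and Loxl4, a lysyl oxidase, at least 1.92-fold lower. Col7a1, the anchoring fibril collagen, was at least 2.13-fold lower. The higher members included the lysyl hydroxylases Plod1 (0.69), Plod2 (0.70) and Plod3 (0.34), which modify collagen in the endoplasmic reticulum, and Col6a1 (0.50). With median scaling 2 passed as higher.

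Among 27 measured of 47 matrix glycoproteins and proteoglycans 14 were lower and 8 higher, with a median of -0.26, and with median scaling 9 and 5 passed. Besides the fibulins, Ccn4, a matricellular WNT target, differed by -2.98 on its brightest probe and by -0.76 on another, and Thbs1, thrombospondin 1, was at least 2.81-fold lower. The proteoglycan Dcn, decorin, stood at 7.81, 7.81 and 7.92 in 4TO7 and 5.81, 5.68 and 5.40 in 4T1, 4.65-fold higher. Agrn, agrin, stood at 11.78, 11.68 and 11.71 in 4TO7 and 10.44, 10.55 and 10.29 in 4T1, 2.45-fold higher. Tnc, tenascin C, was at least 1.33-fold higher, and Thbs3 at least 1.27-fold.

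The integrin list, of subunits that form receptors for this matrix and some of their partners, had 13 of 23 members measured, with a median of -0.46 (-0.29 without background correction). Of the 11 subunits 7 were lower and 1 higher, and the kinase Ilk and the adaptor Fermt2 were not called. Itga1, a collagen receptor subunit, was at least 3.91-fold lower, with levels of 4.32, 4.40 and 4.37 in 4TO7 and 7.26, 7.45 and 6.98 in 4T1. Itgb4, the laminin receptor subunit of hemidesmosomes, stood at 8.43, 8.46 and 8.52 in 4TO7 and 10.17, 10.33 and 10.16 in 4T1, 3.36-fold lower (adjusted p = 2.18e-15). Itgb7 was 3.81-fold lower and Itgb2, the leukocyte beta chain, at least 1.41-fold. Itga5, a fibronectin receptor subunit, differed by 0.34 (adjusted p = 0.0489), a call that was lost under 11 of 18 alternatives. With median scaling 4 passed as lower, and neither median scaling nor loess left any as higher.

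Extracellular proteases and inhibitors had 26 of 47 members measured, 13 lower and 8 higher, with a median of -0.24 here and -0.0098 in the other 9 arrays. Mmp9, a gelatinase, stood at 8.37, 8.41 and 8.41 in 4TO7 and 10.11, 10.05 and 10.13 in 4T1, 3.26-fold lower, while Mmp2, the other gelatinase, was at least 1.67-fold higher. The metalloprotease Adam19 was at least 2.65-fold lower, and Plau, the urokinase that activates plasminogen, and Mmp11, stromelysin 3, were 2.52- and 2.31-fold lower. Serpinf1, the anti-angiogenic serpin PEDF, was 3.61-fold higher, cathepsin H (Ctsh) 2.06-fold, and the sheddase Adam9 differed by 0.83. With median scaling 6 passed as lower.

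Genes of cell identity moved in both directions. Twist1, a transcription factor that drives epithelial-mesenchymal transition and has been tied to metastasis of 4T1 cells, stood at 4.47, 4.50 and 4.42 in 4TO7 and 8.26, 8.25 and 7.98 in 4T1. It was undetected on all 4TO7 arrays and at least 7.47-fold lower (adjusted p = 1.29e-18). Other transcription factors of that transition did not follow it: Zeb2 was higher (0.36), Snai1 was not called (0.24) and Zeb1 was undetected in both lines. Of 33 mesenchymal genes 19 were measured, 9 lower and 7 higher, with a median of -0.12. Foxc2 was at least 3.63-fold lower, whereas its relative Foxc1 differed by 0.86. Pdgfra, a platelet-derived growth factor receptor, was 3.01-fold lower, Axl and Tgfbi differed by 0.46 and 0.81, and with median scaling 3 passed as higher.

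Luminal epithelial genes had 14 of 45 members measured, 6 lower and 2 higher, with a median of -0.31 (-0.15 without background correction). Their share called was 57.1%, against 48.3% of all genes tested. Krt7, a keratin of simple epithelia, was at least 5.83-fold lower, with levels of 5.03, 5.12 and 4.79 in 4TO7 and 7.66, 7.69 and 8.08 in 4T1. The desmosomal plakophilins Pkp2 (0.92) and Pkp3 (0.60) were higher, and with median scaling 1 of them passed. Of 31 basal and squamous genes 9 were measured, 3 higher and 5 lower. Ngfr, the low-affinity neurotrophin receptor, stood at 9.53, 9.73 and 9.56 in 4TO7 and 5.90, 5.58 and 6.04 in 4T1, 13.6-fold higher (adjusted p = 4.95e-18). Egfr, the epidermal growth factor receptor, was at least 2.5-fold lower. Acta2, smooth muscle actin, was at least 1.86-fold lower on 1 probe, while 3 further probes differed by -0.26, -0.22 and -0.035, none past the threshold.

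Mammary hormone response and milk genes had 15 of 43 members measured, 8 higher and 4 lower, with a median of 0.32. In the other 9 arrays 4 were called higher and 5 lower, with a median of -0.019. Sox9, a progenitor transcription factor, stood at 9.55, 9.75 and 9.65 in 4TO7 and 7.91, 7.96 and 8.04 in 4T1, 3.2-fold higher. Tfap2c was at least 3.09-fold lower and a second probe differed by -0.89. Stat5a, which relays prolactin, was at least 1.39-fold lower on 1 probe, and a second probe differed by 0.0092 (adjusted p = 0.978). Xdh, a milk fat globule enzyme that also oxidises purines, was 2.46-fold lower. The proliferins Prl2c3 and Prl2c4, near-identical copies, were 3.91- and 3.59-fold higher, and in the other 9 arrays they differed by 0.09 and 0.13.

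Of 45 genes linked to self-renewal or metastasis 25 were measured, 12 higher and 7 lower, with a median of 0.26. The list overlaps those above through Twist1, Thbs1, Il11 and Sox9. Klf4, a stem cell transcription factor, stood at 8.61, 8.73 and 8.70 in 4TO7 and 6.53, 6.29 and 6.74 in 4T1, 4.46-fold higher (adjusted p = 3.07e-13). Id1, an inhibitor of differentiation factors, and Cd82, a tetraspanin known as a metastasis suppressor, differed by -0.92 and -0.89. Tm4sf1, the gene manipulated elsewhere in the study, stood at 8.64, 7.81 and 8.25 in 4TO7 and 8.13, 7.97 and 7.99 in 4T1, a difference of 0.20 (SE 0.193, adjusted p = 0.409) with overlapping groups. Of 13 measured tetraspanins and L6 relatives 5 were lower, Tspan17 (-1.35) the farthest, and 2 higher, Tspan3 (0.49) and Cd63 (0.35). The share called, 53.8%, was near the 48.3% of all genes tested. A second Cd63 probe differed by -0.059, and with median scaling 0 passed as higher.

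Receptors and ligands of growth factor pathways differed by gene. Of 50 TGF-beta and BMP genes 29 were measured, 13 lower and 3 higher, with a median of -0.32 (-0.17 without background correction). In all 55.2% were called, against 48.3% of all genes tested. The co-receptors Eng, endoglin, at least 5.16-fold lower, and Tgfbr3, betaglycan, at 5.61, 5.999 and 5.53 in 4TO7 and 8.31, 8.36 and 8.86 in 4T1, led the falls, with a second Tgfbr3 probe at -1.64. The type I receptor Tgfbr1 differed by -0.97 and the activin subunit Inhba by -0.98. The higher members were Smad3 (0.38), the receptor Acvr1 (0.44) and the activin inhibitor Fst, at least 1.19-fold. Smad3 and Fst were not called in the other 9 arrays, and with median scaling 1 of the 3 passed.

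Of 70 receptor tyrosine kinases, their ligands and insulin-like growth factor binding proteins 37 were measured, 14 lower and 9 higher. Igfbp7 stood at 8.22, 8.37 and 8.39 in 4TO7 and 11.93, 11.84 and 12.11 in 4T1, 12.4-fold lower (adjusted p = 3.34e-22), and Igfbp6 was 4.11-fold higher. Pdgfb, a ligand of the platelet-derived growth factor receptors, was 7.66-fold lower and detected on 1 of 3 4TO7 arrays. Epha1 was at least 6.38-fold lower on its brightest probe, and 3 others differed by -2.06, -1.39 and -0.81. Efnb1, an ephrin ligand, was 4.59-fold higher, and Btc, a ligand of Egfr, was at least 1.41-fold higher.

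In the WNT and NOTCH list 28 of 64 members were measured, 11 lower and 7 higher. The median was -0.22 here, -0.082 without background correction and 0.025 in the other 9 arrays. Nrarp, a feedback target of NOTCH, stood at 7.16, 7.03 and 6.84 in 4TO7 and 9.77, 9.68 and 9.58 in 4T1, 6.36-fold lower (adjusted p = 2.32e-18), and Hes1, a NOTCH-induced repressor, was 2.94-fold lower. The WNT receptor Fzd7 (-1.31) and the ligand Wnt7b (-1.26) were lower. Notum, which inactivates WNT proteins, stood at 8.09, 8.06 and 8.18 in 4TO7 and 6.46, 6.51 and 6.50 in 4T1, 3.07-fold higher. The ligands Wnt10a and Wnt10b were 2.09- and 2.23-fold higher, and Wnt6 at least 1.48-fold.

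Among metabolic genes, of 26 measured glycolysis genes of 43, 14 were higher and 5 lower, with a median of 0.30, and with median scaling 3 and 2 passed. Pdha1, which feeds pyruvate into the citric acid cycle, stood at 11.23, 11.17 and 10.98 in 4TO7 and 10.16, 10.11 and 10.27 in 4T1. Ldha, lactate dehydrogenase A, differed by 0.53, Eno2 by 0.69 and Taldo1, of the pentose phosphate pathway, by 0.84. Pfkp, the platelet-type phosphofructokinase, was 2.65-fold lower and Hk1, hexokinase 1, differed by -0.87.

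Of 67 measured respiratory chain and ATP synthase subunits 21 were lower and 12 higher, 49.3% called against 48.3% of all genes, and the median was -0.061. With median scaling 3 and 1 passed. The farthest were Cox7a1 (2.54-fold higher, detected on 1 of 3 4T1 arrays) and Ndufb9 (-0.97). Of 29 hypoxia-inducible genes 21 were measured, 9 lower and 7 higher, and the median was 0.18 here and -0.30 in the other 9 arrays. Car9, a carbonic anhydrase, stood at 7.57, 7.60 and 7.63 in 4TO7 and 5.21, 5.27 and 4.91 in 4T1, 5.54-fold higher, while its relative Car12 was 2.62-fold lower and detected on 1 of 3 4TO7 arrays. Angptl4, a lipase inhibitor, was at least 3.39-fold higher and Adm, adrenomedullin, at least 1.41-fold lower.

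Sterol synthesis genes were all measured where the array had them (21 of 28), and 8 were higher and 5 lower. Mvd (0.80) and Tm7sf2 (at least 1.51-fold) were the farthest up, Ebp (-0.88) and Srebf1 (-0.85) the farthest down. Of 27 measured fatty acid genes 16 were not called, and Fads1 had the largest difference of the list. Dgat2, which makes triglycerides, was 2.45-fold higher, and Plin2, which coats lipid droplets, was 2.21-fold lower.

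The genes that handle the drugs used to select these lines were looked at by name. Hprt stood at 10.94, 10.89 and 10.88 in 4TO7 and 10.54, 10.72 and 10.57 in 4T1, a difference of 0.29 (adjusted p = 0.00194), and was not called in the other 9 arrays. Tpmt, which inactivates thiopurines, differed by 0.53 and was likewise not called there. Of the sodium pump genes measured, Atp1b1 was 2.12-fold lower and Fxyd5, a regulator of the pump, stood at 10.48, 10.54 and 10.37 in 4TO7 and 8.50, 8.64 and 8.94 in 4T1, 3.41-fold higher (adjusted p = 2.49e-14).

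Of 59 measured genes of DNA replication and mitosis 19 were higher and 20 lower, and the median was -0.0095. The D-type cyclin Ccnd2 was at least 1.97-fold higher, and the E-type cyclins lay on opposite sides, Ccne1 2.32-fold higher and Ccne2 2.13-fold lower. Of 29 measured p53 targets and tumour suppressors 11 were higher and 7 lower. Phlda3, an inhibitor of AKT, stood at 9.38, 9.36 and 9.46 in 4TO7 and 6.67, 7.03 and 6.89 in 4T1, 5.8-fold higher (adjusted p = 9.64e-16), and the death receptor Fas was 3.52-fold higher. Trp53i11 was at least 2.31-fold lower and Ei24 2.51-fold lower. Of 34 measured immediate early and MYC genes 12 were higher and 9 lower, among them the phosphatase Dusp2 (2.67-fold higher) besides Egr1 and Klf4.

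Imprinted genes, expressed from a single parental copy, were few: 9 of 39 were measured. Snrpn, expressed from the paternal copy, was at least 2.6-fold higher, with levels of 6.57, 6.74 and 6.51 in 4TO7 and 4.27, 4.29 and 4.29 in 4T1. Ppp1r9a was at least 2.18-fold higher, and Phlda2, expressed from the maternal copy, was 3.04-fold lower. Ube3a differed by 0.45 and a second probe by -0.10. Of 5 measured Hox genes of 39, Hoxa5 stood at 9.51, 9.28 and 9.70 in 4TO7 and 10.89, 10.93 and 10.92 in 4T1, 2.67-fold lower, and Hoxc6 differed by 0.88.

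The calls were unevenly spread over the chromosomes. On chromosome 7, 295 of 555 genes tested were higher in 4TO7 (53.2%) and 32 lower (5.77%), with a median difference of 0.34, against 25.5% and 22.8% and a median of 0.034 over all genes. Chromosome 6 had 44.5% higher and 11.6% lower (median 0.27), and chromosome 8 had 36.5% and 14.1% (median 0.19). On chromosome 2, 245 of 634 genes were lower (38.6%) and 14% higher, with a median of -0.20. Chromosomes 12, 14, 15 and 16 had between 34.2% and 34.6% lower. The medians in the other 9 arrays were 0.36 for chromosome 7, 0.22 for chromosome 6, 0.19 for chromosome 8 and -0.22 for chromosome 2.

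Several genes named above lie on these chromosomes. Among the higher genes Lgals7, Il11, Saa3, Cox7a1, Ccne1, Snrpn and Fxyd5 lie on chromosome 7, and Ngfr and Csf3 do not. Of the 18 genes on chromosome 7 that the naming rule picked, 16 were higher and 2 lower (Adm and Phlda2). The rule took called genes, so this split follows that of all called genes there, 295 higher and 32 lower. Among the lower genes Mmp9, Col5a1, Nrarp, Thbs1 and Eng lie on chromosome 2. Of the 26 picked there, 20 were lower and 6 higher, Fgf7 and Dusp2 among the higher. All called genes of chromosome 2 split likewise, 245 lower and 89 higher. Whether the position of a gene had a part in its difference was not tested.

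Within chromosomes, genes were read in runs of 25 neighbours along RefSeq's gene order. Over 7091 such windows the 5th and 95th percentiles of the median difference were -0.38 and 0.39. The highest lay on chromosome 7 between Pih1d1 and Tsg101, with a median of 0.66 and 19 of 25 genes higher and 0 lower. Chromosome 5 held another from Smurf1 to N4bp2l1, with 22 of 25 higher (median 0.58). The lowest lay on chromosome 9 between Septin7 and Zfp202 (median -0.80, 14 lower and 5 higher) and on chromosome 12 from Ckb to Ncapg2 (median -0.71, 21 of 25 lower). Ckb stood at the edge of the last run, far below its neighbours. In the other 9 arrays the same windows had medians of 0.67, 0.62, -0.80 and -0.63.

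**Figure D4:**
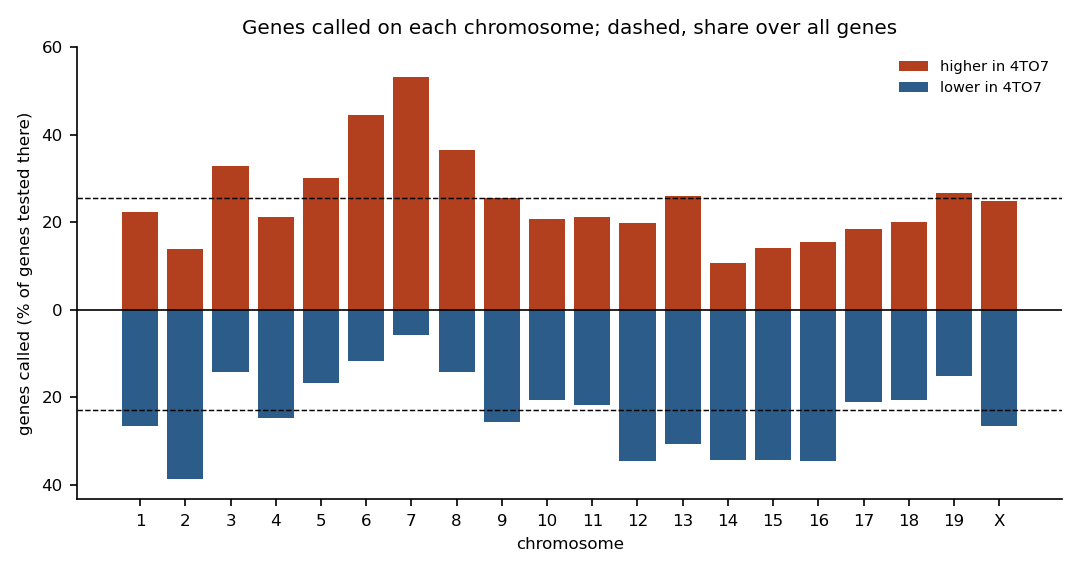
Share of the genes tested on each chromosome that were called higher (red, upward) or lower (blue, downward) in 4TO7 with pBabepuro than in 4T1 with scramble, in percent; dashed lines mark the shares over all genes, 25.5% and 22.8%. Chromosome 7 has the tallest red bar (53.2%) and the shortest blue one (5.77%), and chromosome 2 the longest blue bar (38.6%).

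The difference between the lines could be read again in the 9 arrays outside the comparison, as 4TO7 with TM4SF1 minus the mean of the 2 hairpin groups of 4T1. These arrays share none with the 6 above but come from the same lines and differ also in how Tm4sf1 was handled. Line and vector type change together in them too, so agreement between the comparisons cannot separate the line from the vector. In them 4501 genes were called (54.7%). Of the 3973 genes called between the controls 3349 were called the same way (84.3%, or 74.4% of the 4501) and 7 the opposite way. All 751 genes called at 2-fold or more kept their sign and 748 were called the same way again. Across genes the differences correlated at r = 0.943 and rho = 0.877, with genes not being independent replicates.

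The size was close for the genes farthest apart. Esm1 differed by 6.54 in the other arrays and by 6.71 between the controls, and Ckb by -8.23 and -8.03. Twist1 differed by -3.54 and -3.70, Csf3 by 3.50 and 3.09, and Hyou1 by 1.95 and 1.76. A test of the difference between the 2 comparisons, chosen after seeing the data, called 49 of 8228 genes (0.596%). Tm4sf1 was among them, at 1.65 in the other arrays and 0.20 between the controls.

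**Figure D5:**
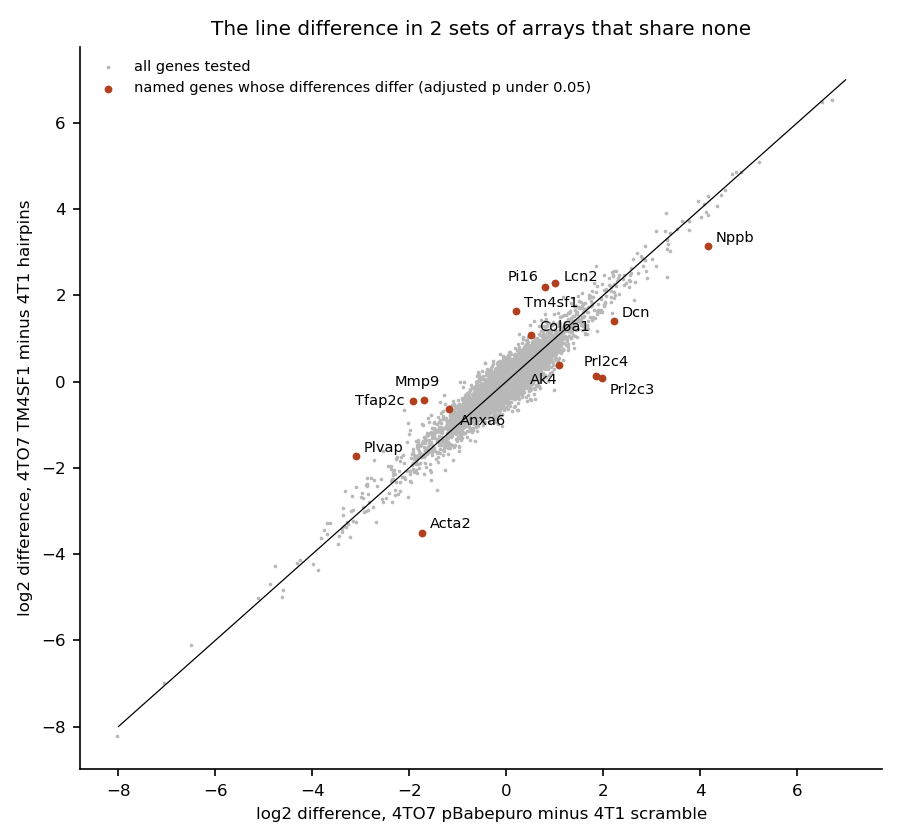
Log2 difference of each gene between the lines in the 9 other arrays (4TO7 with TM4SF1 minus 4T1 with hairpins, vertical axis) against the difference between the controls (4TO7 with pBabepuro minus 4T1 with scramble, horizontal axis). Grey points are all 8228 genes tested, red points the 14 genes named in the text whose differences differ, and the line marks equality. Most genes lie along the line (r = 0.943), and Prl2c3, Prl2c4, Acta2 and Tfap2c lie off it.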

How the data were processed

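RNA of 15 samples was hybridised to Illumina mouse BeadChips after Trizol extraction and biotin labelling, per the labels' protocols. The deposited matrix gives mean bead intensity per probe on a linear scale, not normalized, and a detection p-value per probe, per the file headers. A second deposited table of intensity, normalized by the authors with an unstated method, served as an alternative. The submitters' processing notes name GenomeStudio. No source used here names the genome build behind the probes, so the coordinates printed are those of RefSeq's own GRCm38.p6 windows.

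From these values limma's normexp correction (background inferred from detection p-values, offset 16), quantile normalization and log2 were computed. A probe was kept if its detection p was under 0.01 on 3 or more of the 15 arrays (11109 probes), and each symbol was represented by its brightest probe. Symbols came from the platform annotation: 23978 probes had 1 symbol, 0 several and 1719 none, and 23962 matched RefSeq. That left 8228 genes, 7576 named and 652 unnamed probes.

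A group-means model over the 5 groups was fitted with limma 3.58.1 in R 4.3.3 (10 residual and 16.17 prior degrees of freedom, variance trend). Tests are two-sided with Benjamini-Hochberg adjustment over all genes of a contrast, and a gene was called at an adjusted p under 0.05. The median standard error was 0.13. An exact permutation over 3 and 3 arrays was not used for single genes. Precision is limited by how few arrays there are. The contrast of the other 9 arrays came from the same fit. The script was tested on simulated data.

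The comparison, the members and the gene lists were chosen with earlier results of these data known. Genes were named by rule: the 15 largest rises and falls with no overlap between arrays, up to 4 called members of each list each way, 10 genes each way detected in 1 line only with the highest bound, and Tm4sf1. Genes outside it were chosen after their values were seen or, for windows along chromosomes, mark the ends of a run. Predicted genes were skipped. Alternatives were no background correction, an offset of 50, loess or median scaling, the authors' processed table, other detection filters, every probe, the compared arrays alone, array weights, no variance trend, a replicate block, and leaving out single arrays.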

Additional observations from a re-analysis of the deposited data

Results flagged for a closer look

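14 of the named genes had a line difference in the 9 other arrays (4TO7 with TM4SF1 minus 4T1 with hairpins) that departed from the difference between the controls, by limma's test of the difference itself (adjusted p under 0.05 over all genes, a test chosen after seeing the data). Each value below is the first difference minus the second, on the log2 scale. In these arrays the line, the vector type and the handling of Tm4sf1 cannot be told apart.

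Tm4sf1 itself departed by 1.44, the gene whose hairpins were in the 4T1 arrays. The proliferins Prl2c3 (-1.88) and Prl2c4 (-1.71) had lost their higher level in 4TO7. Acta2 departed by -1.75, with group means of 6.72 and 9.12 in the hairpin 1 and hairpin 5 arrays. Nppb (-1.01), Dcn (-0.82) and Ak4 (-0.71) were higher in 4TO7 by less than between the controls. Tfap2c (1.48), Plvap (1.39), Mmp9 (1.27) and Anxa6 (0.55) were lower in 4TO7 by less than between the controls. Pi16 (1.38), Lcn2 (1.29) and Col6a1 (0.58) were higher in 4TO7 by more.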

How the results depend on the processing

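Scaling arrays to a common median in place of quantile normalization moved the counts most: 1554 genes were called between the controls (887 higher, 667 lower), 1821 in the other arrays and 1247 the same way in both. The median difference over all genes was then 0.11, and 1551 of the 1554 calls were among those reported. Under every other alternative the counts stayed within 1.5 times those reported. Between the controls they were 3601 to 3625 with a control array left out, and in the other arrays 3970 to 4502. With array weights 4437 genes were called. Without the detection filter 18312 genes were tested and 3668 called, a share of 20% against the 48.3% reported. The share called therefore depends on the filter. Same-numbered arrays did not deviate together (r = -0.014, 0.034 and -0.029), so the numbers do not pair them. With the replicate number as a block 3931, 4428 and 3307 genes were called between the controls, in the other arrays and the same way in both.

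Of 244 named genes 204 kept their direction and their side of the threshold under every alternative that could be run, at most 18 each, 40 lost the call under at least 1, and 0 changed sign. Itga5 lost its call under 11, Fasn under 8, and Eif2ak2, Psme2, Psmb10, Ube3a and S100a6 under 6 each. Weak signals limit the folds of genes undetected in 1 line, and their sizes depend on the background correction: Esm1 differed by 4.55 to 6.998 over the alternatives.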
